A study of Mus musculus with 14 samples.

Results

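Transcripts of 10 nuclear genes that make, hold, tail or degrade mitochondrial RNA were followed in mouse brown adipose tissue after deletion of one of them, Lrpprc. The genes were listed by function, at a time when earlier results of these data were known: Lrpprc and its partner Slirp, the poly(A) polymerase gene Mtpap, the decay genes Supv3l1 and Pnpt1, the transcription genes Polrmt, Tfam, Tfb2m and Tefm, and the rRNA methyltransferase gene Tfb1m. All 10 were present among the 35275 genes of the deposited expression table, and all 10 were among the 13079 genes that passed the filter on low values. All mice were of the C57BL/6 strain, were 8 weeks old and carried floxed Lrpprc alleles (LrpprcFF). Knockouts also carried Ucp1-Cre, a recombinase driven from the promoter of the brown fat gene Ucp1, and controls did not. Animals were housed at 22 °C (4 knockouts, 4 controls) or at 30 °C, which is thermoneutral for mice (3 knockouts, 3 controls). RNA came from homogenised tissue, although the labels name brown adipocytes. Cells that do not express Ucp1, and so would lack the recombinase, can therefore contribute to each value with their Lrpprc intact. In such bulk samples, fewer cells of a type and less RNA per cell cannot be told apart.

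Mitochondrial DNA is transcribed by the polymerase POLRMT, which needs TFAM to bend the promoter DNA, TFB2M to melt it and TEFM to keep the enzyme moving along the template. Many of the transcripts are then held as mature mRNA by the LRPPRC-SLIRP complex. Mitochondrial mRNAs are polyadenylated by MTPAP, and mitochondrial RNA is degraded by the helicase SUV3 (gene Supv3l1) with the exonuclease PNPase (gene Pnpt1). Brown adipocytes are packed with mitochondria, and their heat production depends on the respiratory chain, of which these mRNAs encode some of the subunits.

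Values are FPKM (fragments per kilobase of gene, relative to library depth), as the authors made them. Each library was then scaled by its median ratio over 10021 nuclear genes, because mitochondrial mRNAs took a far smaller share of the fragments in knockouts. Libraries held 15.92 to 21.32 M fragments, and a single value of a member rested on 56 (Tfb1m) to 4245 (Lrpprc) fragments. Xist had at most 4 fragments in each animal at 22 °C but 9.7 to 15.3 scaled FPKM at 30 °C, and the Y-linked Ddx3y showed the reverse (16.3 to 23.9, and at most 0.0242). The labels give no sex, and housing temperature and this split cannot be told apart in any comparison across temperatures. Of the controls at 22 °C, replicates 3 and 4 have identifiers that begin with another letter (R) than those of all other animals. Both lay below the other controls at 22 °C for 9 of the 10 members, all but Tefm, and for 25.5% of all genes tested.

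**Figure D1:**
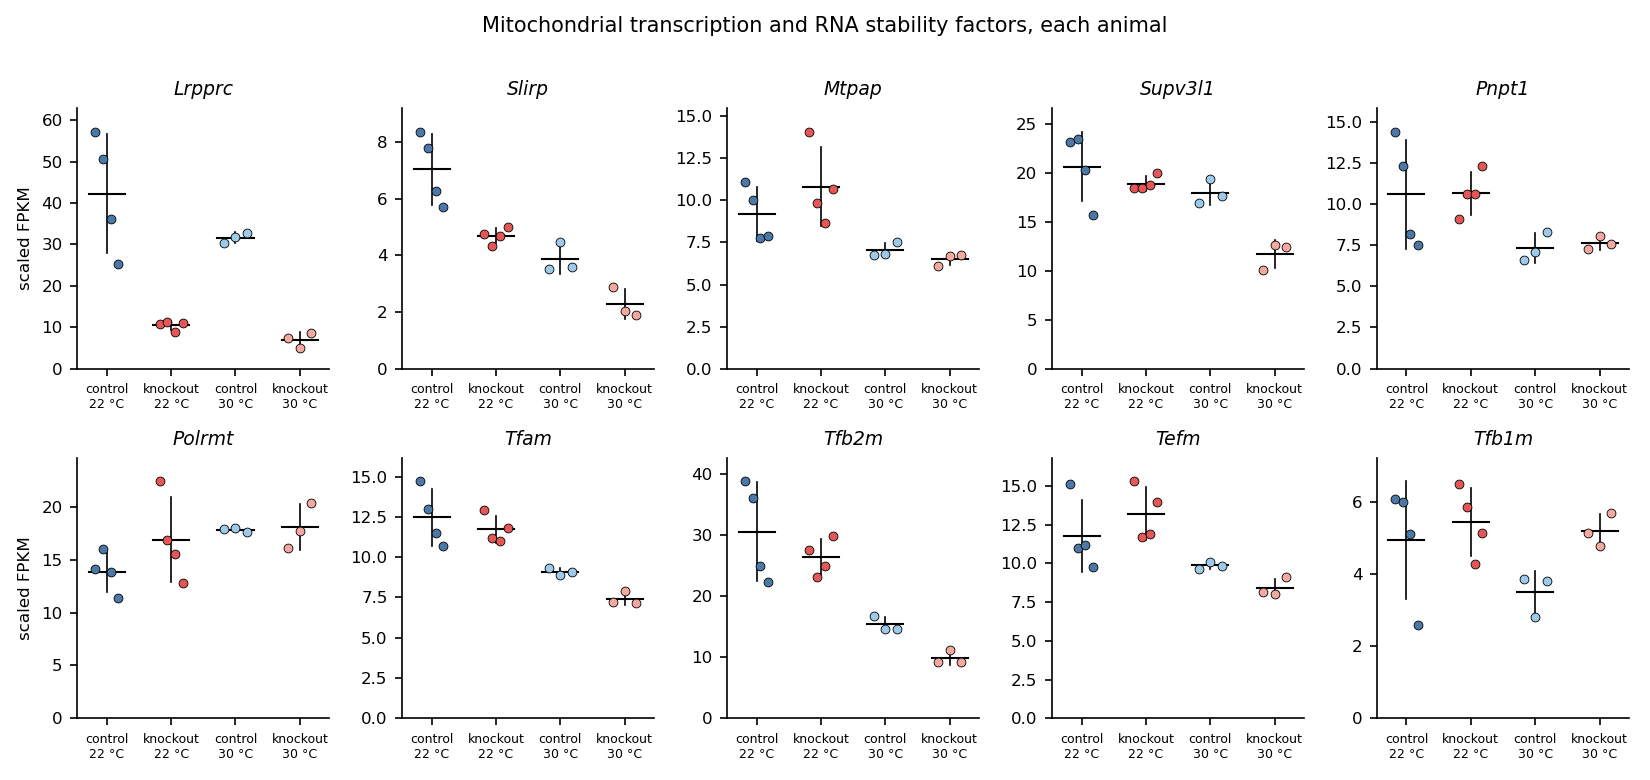
Scaled FPKM of each of the 10 genes (y axes, from 0) in the 4 groups (x axes), with a point for each animal, a horizontal bar for the group mean and a vertical line for 1 SD on each side. Lrpprc and Slirp were lower in every knockout than in every control of the same temperature. Lrpprc, Slirp, Mtpap, Supv3l1, Tfam, Tfb2m and Tefm had their lowest group means in knockouts at 30 °C.

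Lrpprc, the deleted gene (ENSMUSG00000024120), was examined first because it checks the labels. At 22 °C the controls had 57.3, 50.6, 36.1 and 25.3 scaled FPKM, and the knockouts had 10.8, 11.2, 8.84 and 11. At 30 °C the controls had 30.3, 31.9 and 32.8, and the knockouts had 7.39, 4.97 and 8.56. Every knockout lay below every control, the controls at 22 °C were spread widely, and both controls with R identifiers were the lowest of them. Knockout means were 24.6% of the control mean at 22 °C and 22% at 30 °C, or 30.8% and 27% of it with FPKM as deposited. On the log2 scale Lrpprc changed by -1.86 at 22 °C (SE 0.21, limma adjusted p = 3.73e-04) and -2.06 at 30 °C (SE 0.25, limma adjusted p = 3.79e-04). Exact two-sided permutation tests over the animals gave p = 0.0286 for 4 against 4 and p = 0.1 for 3 against 3, the smallest values that these numbers allow. The value is for the whole gene, so exons left in place by the recombination can still contribute to it.

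Slirp (ENSMUSG00000021040) encodes the small RNA-binding partner of LRPPRC, and the partners are known to stabilise each other as proteins. At 22 °C its controls had 8.37, 7.8, 6.26 and 5.7 scaled FPKM and its knockouts 4.75, 4.34, 4.67 and 5. At 30 °C its controls had 3.51, 4.47 and 3.6 and its knockouts 2.87, 2.03 and 1.9. The genotypes did not overlap at either temperature, and controls at 30 °C lay below controls at 22 °C. Knockouts averaged 66.7% of controls at 22 °C, with a log2 fold change of -0.49 that did not pass the test (SE 0.13, 95% interval -0.76 to -0.21, limma adjusted p = 0.076). Knockouts averaged 58.7% of controls at 30 °C, where the transcript fell by 0.58 on the log2 scale (SE 0.15, limma adjusted p = 0.0212). Without the controls with R identifiers, the change at 22 °C was -0.68 and passed (limma adjusted p = 0.0287). With FPKM as deposited it was -0.22 at 22 °C and -0.36 at 30 °C. On that scale the medians of all genes tested were 0.24 and 0.31, in place of 0.00 and 0.06.

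The Slirp value also carries an annotation limit. In the GENCODE M21 annotation 93.9% of its exon length overlaps Snw1, a splicing and transcription cofactor gene on the opposite strand, and the use of strand in the counting is not given in the sources used here. Reads of the pair may therefore not be told apart. Snw1 itself had a log2 fold change of 0.09 at 22 °C and 0.00 at 30 °C (limma adjusted p = 0.747 and 0.987), so its own value did not move with Slirp between genotypes. Between temperatures Snw1 was higher at 22 °C, as Slirp was, by 0.18 in controls and 0.27 in knockouts, without passing (limma adjusted p = 0.241 and 0.0766). The length inferred behind the deposited Slirp values, 2701 bases, is that of the longest of its 4 annotated transcripts, the others having 335 to 802 bases, which makes its level relative to other genes uncertain.

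The complex of both proteins holds many of the mRNAs encoded by mitochondrial DNA, and these mRNAs were read in the same animals. Summed over the 13 protein-coding transcripts, knockouts had 7.59%, 9.01%, 6.54% and 7.72% of the control mean at 22 °C and 11.5%, 5.05% and 14.5% of it at 30 °C. All 13 fell at both temperatures, with medians of -3.49 and -3.18 on the log2 scale. Reads from opposite strands of mitochondrial DNA may not be told apart, because the use of strand in the counting is not given. The 13 mRNAs took 13.2% to 19.1% of all fragments in controls and 1.12% to 3.08% in knockouts. Among the controls at 22 °C, replicate 4 had the least Lrpprc, at 59.8% of the control mean, and its mitochondrial mRNA was at 105%. Within the knockouts of each temperature, the order of the animals by Lrpprc was their order by mitochondrial mRNA. These are few animals, and at 22 °C their Lrpprc spanned only 20.9% to 26.3% of the control mean. At 30 °C the knockout with the least Lrpprc (15.7% of the control mean) had a Slirp value of 52.5%, in the middle of the 3 knockouts.

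**Figure D2:**
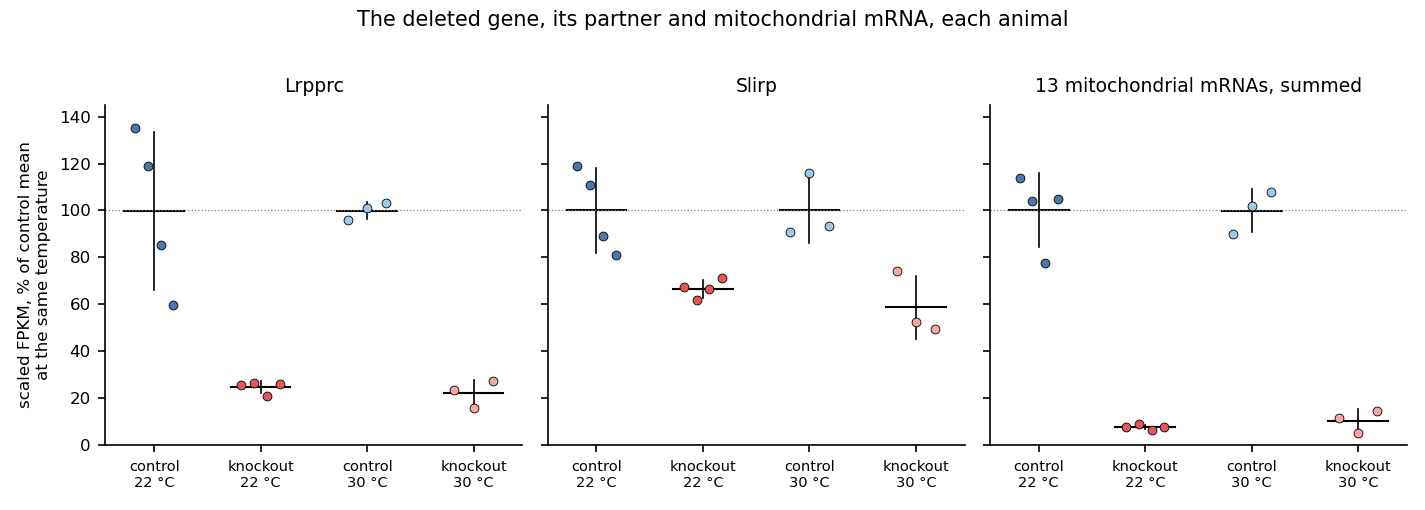
Scaled FPKM as a percentage of the control mean at the same temperature (y axis, from 0) for Lrpprc, Slirp and the sum of the 13 mitochondrial mRNAs in the 4 groups (x axes). Points are animals, horizontal bars are means and vertical lines 1 SD on each side. Knockouts lie at 15.7% to 27.1% for Lrpprc, 49.3% to 74.2% for Slirp and 5.05% to 14.5% for mitochondrial mRNA.

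Across the 10 genes, the only call at 22 °C was the deleted gene itself, and more genes were called at 30 °C. Lrpprc is part of every count below, and its own fall was set by the deletion. At 22 °C only Lrpprc was called (adjusted p under 0.05), against 1.97% of all genes tested called in either direction and 1.06% called lower. Groups did not overlap at 22 °C for 2 of the 10, Lrpprc and Slirp, against 9.38% of all genes tested. At 30 °C 4 of the 10 were called, all lower, against 14.1% called in either direction and 5.29% called lower over all genes tested. These were Lrpprc, Slirp, Supv3l1 and Tfb2m. Groups did not overlap at 30 °C for 7 of the 10, against 36.8% of all genes tested. The median log2 fold change of the 10 was -0.02 at 22 °C and -0.24 at 30 °C, beside 0.00 and 0.06 over all genes tested. The scaling bears on these counts: with FPKM as deposited, Mtpap, Polrmt and Tefm were also called at 22 °C, all higher, and the calls at 30 °C were Lrpprc and Slirp lower and Tfb1m higher. The share of all genes tested that was called on that scale is not given here.

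Among the genes of tailing and decay, the helicase transcript moved and the polymerase and exonuclease transcripts did not pass the test. Supv3l1 had 16.9, 19.4 and 17.6 scaled FPKM in controls at 30 °C and 10.1, 12.6 and 12.4 in knockouts. The groups were apart, knockouts averaged 65% of controls, and the transcript fell by 0.59 on the log2 scale (SE 0.14, limma adjusted p = 0.0142). At 22 °C Supv3l1 had 23.1, 23.4, 20.3 and 15.7 in controls and 18.4, 18.4, 18.7 and 20 in knockouts, whose values lay within the control range (log2 fold change -0.11, SE 0.12, limma adjusted p = 0.715). Leaving out control replicate 2 or knockout replicate 1 at 30 °C ended the call, with limma adjusted p = 0.0656 and 0.0716. With FPKM as deposited the change at 30 °C was -0.31 (limma adjusted p = 0.0817).

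Pnpt1, the exonuclease partner of that helicase, kept 101% of the control mean at 22 °C and 104% at 30 °C. Its log2 fold changes were 0.04 (95% interval -0.32 to 0.41) and 0.05 (95% interval -0.37 to 0.47), so a change of the size seen for Supv3l1 at 30 °C lies outside both intervals. Mtpap, which adds the poly(A) tails, was measured between 7.79 and 11.1 scaled FPKM in controls at 22 °C and between 8.64 and 14.1 in knockouts. Those ranges overlap, as do the ranges at 30 °C (6.75 to 7.53 in controls, 6.11 to 6.77 in knockouts). Its log2 fold changes were 0.21 (SE 0.14, limma adjusted p = 0.514) and -0.09 (SE 0.16, limma adjusted p = 0.752).

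Of the genes that start transcription, Tfb2m gave the only call. Its controls at 30 °C had 16.8, 14.7 and 14.7 scaled FPKM and its knockouts 9.29, 11.2 and 9.22. Every knockout was below every control, the mean was 64.4% of the control mean, and the transcript fell by 0.59 on the log2 scale (SE 0.18, limma adjusted p = 0.0483). This call stood close to the threshold: it was lost in 5 of the 6 fits that left out an animal at 30 °C and kept only without knockout replicate 2. It was also lost with FPKM as deposited (-0.31, limma adjusted p = 0.161), when the nuclear genes of each library were set to one total (-0.44, limma adjusted p = 0.112) and without the filter on low values (limma adjusted p = 0.0775). At 22 °C the Tfb2m controls had 38.8, 36.1, 25 and 22.3 and the knockouts 27.6, 23.1, 24.9 and 29.8, so that the ranges overlapped (log2 fold change -0.17, SE 0.16, limma adjusted p = 0.644). A near copy, Gm1818, shares 1187 bases with Tfb2m at 99.3% identity and reached at most 1.11 FPKM in any animal.

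Tfam, which also packages mitochondrial DNA, had 9.34, 8.88 and 9.06 scaled FPKM in controls at 30 °C and 7.22, 7.87 and 7.14 in knockouts. These groups did not overlap, but the log2 fold change of -0.26 did not pass the test (SE 0.11, 95% interval -0.50 to -0.02, limma adjusted p = 0.14). That change passed in 2 of 15 alternatives, quantile normalization (-0.40, limma adjusted p = 0.0421) and limma's sample weights (-0.28, limma adjusted p = 0.0247). With FPKM as deposited it was 0.0037 (limma adjusted p = 0.982). At 22 °C Tfam was at 94.1% of the control mean (log2 fold change -0.07, 95% interval -0.28 to 0.13). Polrmt, the polymerase itself, was measured between 16.1 and 20.4 in knockouts at 30 °C and between 17.6 and 18 in controls. The polymerase transcript therefore overlapped between genotypes, with a log2 fold change of 0.01 (95% interval -0.35 to 0.37). At 22 °C Polrmt was measured between 12.8 and 22.4 in knockouts and between 11.4 and 16 in controls (log2 fold change 0.26, 95% interval -0.06 to 0.57).

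Tefm, the elongation factor, did not pass the test at either temperature, with log2 fold changes of 0.16 at 22 °C (95% interval -0.10 to 0.43) and -0.21 at 30 °C (95% interval -0.51 to 0.09). Its ranges at 30 °C, 9.67 to 10.1 scaled FPKM in controls and 8 to 9.11 in knockouts, did not overlap. Tfb1m, which methylates the small mitochondrial rRNA and is a paralog of Tfb2m, was the only member with higher values in all knockouts than in all controls at 30 °C. Its controls had 3.86, 2.82 and 3.82 and its knockouts 5.14, 4.78 and 5.7, a ratio of means of 149%. The log2 fold change of 0.47 did not pass the test (SE 0.22, 95% interval -0.01 to 0.95, limma adjusted p = 0.188), and Tfb1m had the fewest fragments of the 10 genes, 56 to 177 in an animal. The change at 30 °C passed in 2 of 14 alternatives, limma's sample weights (0.55, limma adjusted p = 0.0192) and FPKM as deposited (0.72, limma adjusted p = 0.0213). A processed transcript of the gene, 2419 bases long, shares 322 to 423 bases with 77 other genes at 90% to 93.8% identity, some of them abundant. Its protein-coding transcript of 1402 bases shares no such stretch, and the length inferred behind the deposited values is 1327 bases. At 22 °C Tfb1m differed by 0.16 (SE 0.19, limma adjusted p = 0.747).

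**Figure D3:**
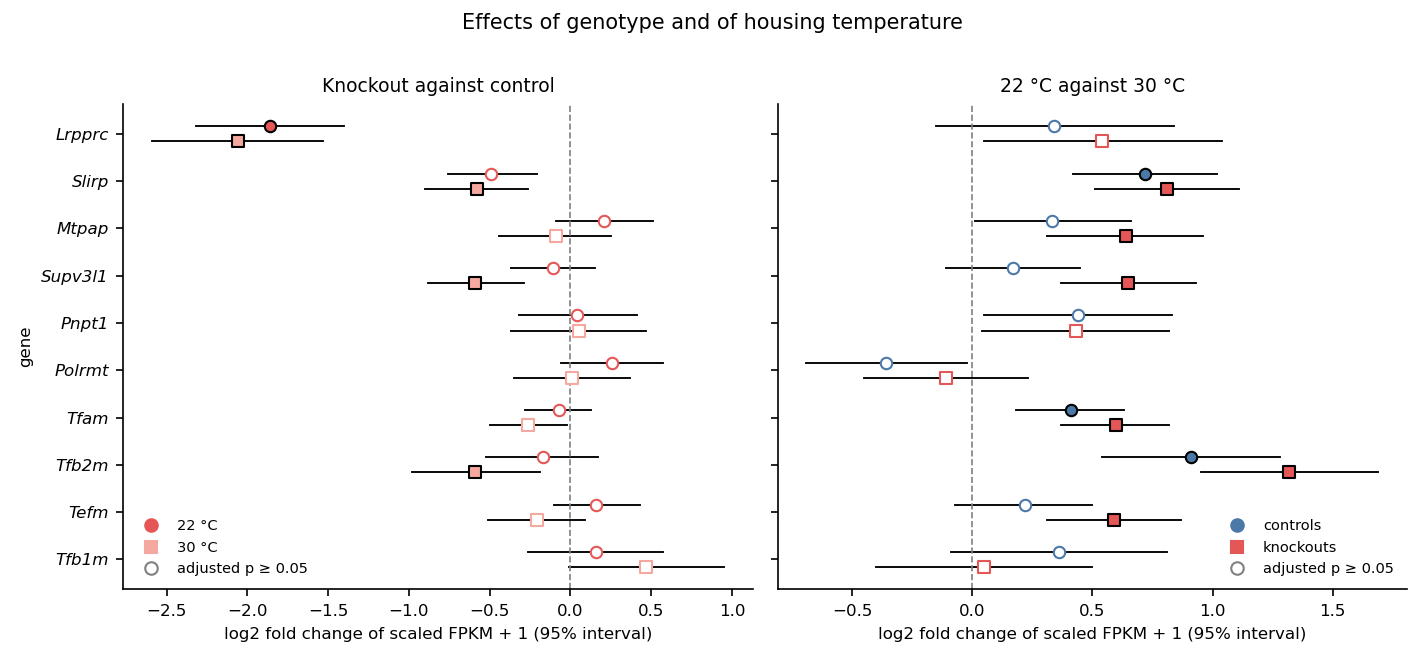
Log2 fold change of scaled FPKM plus 1 (x axes) for each gene (y axis), with 95% intervals from limma as horizontal lines, for knockout against control (left) and for 22 °C against 30 °C (right, positive values being higher at 22 °C). Filled symbols have an adjusted p under 0.05. Lrpprc stands apart at the left in both knockout comparisons, and Tfb2m has the largest temperature differences of the 10 in both genotypes.

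Whether the deletion acted differently at the 2 temperatures was tested directly as an interaction. No member was called, and 0% of all genes tested were called, either with limma on log2 values or with limma voom on fragments recovered from the table. Before adjustment, 1692 and 1391 genes had a p under 0.05. The member nearest to a call was Supv3l1, with knockout effects of -0.11 at 22 °C and -0.59 at 30 °C and a difference (22 °C minus 30 °C) of 0.48 on the log2 scale (SE 0.18, limma adjusted p = 0.294). The difference was 0.41 for Tfb2m (SE 0.24), 0.09 for Slirp (SE 0.20) and 0.20 for Lrpprc (SE 0.33). The larger number of calls at 30 °C is therefore not shown to be a difference between temperatures.

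Markers of the cell types in the tissue also differed between the genotypes, with most calls at 30 °C. The summed scaled FPKM of 12 macrophage markers was 69.1 to 104 in controls and 115 to 245 in knockouts at 22 °C, and 149 to 490 in controls and 757 to 2317 in knockouts at 30 °C. At 22 °C 0 of these 12 were called (median log2 fold change 0.56), and at 30 °C 11 were called higher in knockouts. No marker of the list was at 0 in all animals of a group. The sum of 13 brown adipocyte markers was 15298 to 19061 in controls and 8226 to 9990 in knockouts at 30 °C, where 6 of the 13 were called lower. The median log2 fold change there was -0.53, with 10 negative values and 3 positive ones, up to 0.98. At 22 °C that sum was 20571 to 27211 in controls and 16165 to 21449 in knockouts, with 1 marker called higher and 1 lower (median log2 fold change -0.02). Ucp1 had a log2 fold change of -0.02 at 22 °C (SE 0.31) and fell by 1.31 at 30 °C (SE 0.36, limma adjusted p = 0.0302). The 10 skeletal muscle markers summed to between 21.4 and 13251 in single animals. Of the 9 tested none was called in either knockout comparison, with negative fold changes for all 9 at 22 °C (median -0.74) and positive ones for all 9 at 30 °C (median 1.87). The 6 endothelial markers summed to 296 to 303 in controls and 679 to 755 in knockouts at 30 °C. Cldn5 alone was called there, at 547 ± 51 in knockouts and 104 ± 5.2 in controls (SD, n = 3 each), while the other 5 had negative fold changes and the list median was -0.26. Lymphocyte markers summed to at most 28.8 in any animal, and none of the 3 tested of 5 was called in either knockout comparison. The part of these shifts in the lower Slirp, Supv3l1 and Tfb2m values at 30 °C was not tested.

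Several of the genes had higher values in animals housed at 22 °C than in those at 30 °C, a contrast that cannot be told apart from the split in Xist and Ddx3y. The same animals serve in these comparisons as in the knockout comparisons, so the results are not independent. In controls 3 of the 10 were called, all higher at 22 °C, against 38.8% of all genes tested called in either direction and 18.2% called higher. Groups did not overlap for 5 of the 10, against 43.5% of all genes tested. In knockouts 6 of the 10 were called, all higher at 22 °C, against 51.2% called in either direction and 21.8% called higher. Groups did not overlap for 8 of the 10 in knockouts, against 55.8% of all genes tested. Calls in either direction were thus about as common among the 10 as among all genes tested, and those of the 10 were all in one direction. With FPKM as deposited, the calls in controls were 3 higher and 1 lower at 22 °C. The medians of the 10 were 0.35 in controls and 0.59 in knockouts, beside -0.05 and -0.07 over all genes tested. Cell type markers moved in the same comparisons: 8 of 12 macrophage markers were called lower at 22 °C in controls (median -1.06) and 12 of 12 in knockouts (median -2.83). Of 13 brown adipocyte markers, 6 were called higher and 1 lower at 22 °C in controls (median 0.43), and 10 higher in knockouts (median 1.07). Their part in the differences of the 10 genes was not tested.

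Tfb2m had the largest temperature difference of the 10. Its controls averaged 30.6 ± 8.15 scaled FPKM at 22 °C (SD, n = 4) and 15.4 ± 1.2 at 30 °C (SD, n = 3), and its knockouts 26.4 ± 2.94 (SD, n = 4) and 9.92 ± 1.14 (SD, n = 3). The log2 difference was 0.91 in controls (SE 0.17, limma adjusted p = 0.00194) and 1.32 in knockouts (SE 0.17, limma adjusted p = 1.04e-04). No animal at 30 °C reached the lowest value at 22 °C in its genotype. Slirp was higher at 22 °C by 0.72 in controls (SE 0.14, limma adjusted p = 0.00227) and by 0.81 in knockouts (SE 0.14, limma adjusted p = 5.22e-04). Tfam was higher by 0.41 in controls (SE 0.10, limma adjusted p = 0.00932) and by 0.60 in knockouts (SE 0.10, limma adjusted p = 6.06e-04). Those 3 genes were called in both genotypes, and the temperature calls of Tfam and Tfb2m held in all alternatives tried.

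Supv3l1, Mtpap and Tefm were called in knockouts and not in controls. Their log2 differences in knockouts were 0.65, 0.64 and 0.59 (limma adjusted p = 0.0013, 0.00374 and 0.00267), and those in controls were 0.17, 0.33 and 0.22 (limma adjusted p = 0.302, 0.0933 and 0.208). The interaction above is also the test of this contrast, and it called none of them. Pnpt1 had similar values in both genotypes, 0.44 and 0.43, without passing (limma adjusted p = 0.0714 and 0.0637). Lrpprc had 0.34 in controls (SE 0.23, limma adjusted p = 0.251) and 0.54 in knockouts (SE 0.23, limma adjusted p = 0.0643). Polrmt was the only one of the 10 with lower values at 22 °C in both genotypes. In controls it had 14.1, 16, 13.8 and 11.4 at 22 °C and 17.9, 18 and 17.6 at 30 °C. The control groups did not overlap, but the difference of -0.36 did not pass (SE 0.16, limma adjusted p = 0.0869), and in knockouts it was -0.11 (SE 0.16, limma adjusted p = 0.565), or 0.017 with quantile normalization. With FPKM as deposited the Polrmt difference in controls was -0.45 and passed (limma adjusted p = 0.0438). The number called in controls depended on the animals with R identifiers: without both it was 8 of 10, and without replicate 4 alone it was 7. The shares of all genes tested called in those fits are not given here, so the rise may not be particular to the 10.

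The promoters of the genes called between temperatures in both genotypes, Slirp, Tfam and Tfb2m, are shown beside that of Polrmt. On scaled FPKM, Polrmt was called in neither genotype. Each is the 250 bases before the start, from RefSeq on GRCm38.p6: Slirp at chr12:87443646-87443895, plus strand, Tfam at chr10:71238045-71238294, minus strand, Tfb2m at chr1:179546277-179546526, minus strand, and Polrmt at chr10:79746582-79746831, minus strand. Capitals mark matches to the motifs searched.
Slirp: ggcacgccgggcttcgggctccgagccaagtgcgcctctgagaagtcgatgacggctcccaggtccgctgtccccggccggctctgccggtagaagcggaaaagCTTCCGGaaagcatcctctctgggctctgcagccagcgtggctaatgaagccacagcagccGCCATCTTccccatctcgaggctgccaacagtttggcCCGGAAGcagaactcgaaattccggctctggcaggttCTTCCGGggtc
Tfam: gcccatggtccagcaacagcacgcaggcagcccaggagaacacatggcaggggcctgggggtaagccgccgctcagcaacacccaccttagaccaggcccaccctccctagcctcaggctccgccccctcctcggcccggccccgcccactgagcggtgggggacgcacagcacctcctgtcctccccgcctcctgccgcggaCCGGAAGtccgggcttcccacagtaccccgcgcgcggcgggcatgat
Tfb2m: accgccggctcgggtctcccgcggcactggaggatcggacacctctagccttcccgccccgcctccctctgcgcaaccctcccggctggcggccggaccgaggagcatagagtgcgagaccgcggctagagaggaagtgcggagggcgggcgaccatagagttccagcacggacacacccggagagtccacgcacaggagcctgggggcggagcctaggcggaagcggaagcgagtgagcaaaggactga
Polrmt: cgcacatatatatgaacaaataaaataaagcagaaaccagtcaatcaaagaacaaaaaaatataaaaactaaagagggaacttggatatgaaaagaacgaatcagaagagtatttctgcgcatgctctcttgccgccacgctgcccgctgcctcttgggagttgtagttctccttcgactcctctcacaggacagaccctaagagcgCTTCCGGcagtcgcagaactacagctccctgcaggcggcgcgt

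The motifs searched, on both strands, were CCGGAAG (the core bound by GABP, also called NRF-2), AAGATGGC (YY1), TCAAGGTCA (estrogen-related receptors), TGACGTCA (cAMP response element) and the NRF-1 motif. Entries were found for 9 of the 10 genes, all but Mtpap. CCGGAAG was present in 4 of these 9 (Slirp, Polrmt, Tfam and Tefm), and in 6.91% of the 32851 RefSeq promoters of the same length. Those promoters were not matched for base content. G and C made up 64% of the Slirp window, 72% of Tfam, 69.2% of Tfb2m and 46.8% of Polrmt. The shares therefore do not show an excess of the motif in these genes. Slirp held it at 3 places, from 146, 48 and 11 bases before the start, Tfam from 47 and Polrmt from 43. AAGATGGC was present in Slirp alone of the 9 and in 1.56% of all promoters, and no match overlapped another. Alkbh1, on the opposite strand, overlaps 122 bases of the Slirp exons, so matches in the Slirp window may lie in sequence of both genes. Read on the strand of Alkbh1, the AAGATGGC match follows directly on an ATG and the base triplet after it. The reading frame from that ATG runs without a stop through the CCGGAAG match 146 bases before the start. Both of these matches may therefore be coding sequence of Alkbh1. The other motifs matched none of the 9 and 0.387% (TCAAGGTCA), 1.55% (TGACGTCA) and 0.998% (NRF-1) of all promoters. The motif CCGGAAG was thus present both in promoters of genes that were higher at 22 °C and in that of Polrmt, and it was not in the Tfb2m window. A match describes the letters only.

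The order of the levels, compared on the scaled FPKM scale, differed between genotypes. In controls at 30 °C Lrpprc was highest at 31.7 ± 1.22 (SD, n = 3), above Supv3l1 at 18 ± 1.3 and Polrmt at 17.8 ± 0.199, whose ranges overlapped. Next came Tfb2m (15.4), Tefm (9.88) and Tfam (9.09), each apart from its neighbours in range. Pnpt1 (7.33) and Mtpap (7.03) overlapped, as did the lowest pair, Slirp (3.86) and Tfb1m (3.5). In controls at 22 °C the order ran from Lrpprc (42.3 ± 14.4, SD, n = 4) and Tfb2m (30.6 ± 8.15) to Tfb1m (4.95 ± 1.63), and every neighbouring pair overlapped. In knockouts Lrpprc ranked 8 of the 10 at 22 °C (10.4 ± 1.07, SD, n = 4) and 7 at 30 °C (6.97 ± 1.83, SD, n = 3), and Slirp was the lowest of the 10 at both temperatures, with ranges that overlapped those of Tfb1m at 22 °C. That place rests on the 2701-base length behind its values, and the length of a shorter Slirp transcript would give a higher level.

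The genes outside the 10 whose log2 values over the 14 animals were most like those of Lrpprc were Gm10222, mt-Nd5 and mt-Nd4l, with Pearson r of 0.981, 0.971 and 0.966. mt-Nd5 and mt-Nd4l encode complex I subunits in mitochondrial DNA, and the Gm10222 transcript is identical to mt-Nd4l over 294 bases, so their reads may be shared. Gm10222 had 57.2 ± 19.4 scaled FPKM in controls at 22 °C (SD, n = 4) and 6.8 ± 0.953 in knockouts (SD, n = 4). The genes most like Slirp were Eci2, a fatty acid oxidation enzyme, with r of 0.979, Dhrs7, a dehydrogenase of the short-chain family, with 0.976, and Emc7, a subunit of the membrane protein complex of the endoplasmic reticulum, with 0.973. Eci2 had means of 81.9, 62.3, 57.3 and 38.5 scaled FPKM in controls at 22 °C, knockouts at 22 °C, controls at 30 °C and knockouts at 30 °C. These correlations describe 14 animals in 4 groups and include the differences between groups.

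The wider machinery was read from lists by role. Over all genes tested, 1.97% were called at 22 °C (1.06% lower) and 14.1% at 30 °C (5.29% lower), and the counts below stand beside these shares. Of 12 genes for replication and the nucleoid, 1 was called higher and 0 lower at 22 °C, and 1 higher and 3 lower at 30 °C. The gene that rose at both was Lonp1, the matrix protease that degrades TFAM among other proteins: it had 259 ± 93.1 scaled FPKM in knockouts and 100 ± 18.6 in controls at 22 °C (SD, n = 4 each). On the log2 scale Lonp1 rose by 1.30 at 22 °C (SE 0.26, limma adjusted p = 0.0258) and by 1.0 at 30 °C (SE 0.30, limma adjusted p = 0.0452). Atad3a, an inner membrane ATPase linked to nucleoids, fell by 0.63 at 30 °C (SE 0.13, limma adjusted p = 0.00775), as did Top1mt, the mitochondrial topoisomerase, by 0.46 (SE 0.14, limma adjusted p = 0.0421). The list medians were 0.12 at 22 °C and -0.01 at 30 °C. None of the 5 termination factor genes (Mterf family) was called at either temperature.

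Of 23 genes for RNA processing, RNA granules and turnover, 1 was called lower at 22 °C and 2 at 30 °C, with 0 called higher and medians of 0.05 and -0.01. Hsd17b10, a subunit of mitochondrial RNase P that is also a dehydrogenase, fell at both temperatures. Its means were 129 ± 12 scaled FPKM in knockouts and 202 ± 17.8 in controls at 22 °C (SD, n = 4 each), a log2 fold change of -0.64 (SE 0.10, limma adjusted p = 0.00545). At 30 °C it was -0.86 (SE 0.11, limma adjusted p = 7.70e-04). Prorp, the catalytic subunit of the same enzyme, fell by 0.47 at 30 °C (SE 0.11, limma adjusted p = 0.0156).

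Of 19 RNA modification genes, 1 was called at each temperature, both lower. Mrm2, a methyltransferase of the large mitochondrial rRNA, fell by 0.43 at 22 °C (SE 0.08, limma adjusted p = 0.0155), and Trit1, which modifies tRNA, fell by 0.74 at 30 °C (SE 0.15, limma adjusted p = 0.00665). Of 13 translation factor genes matched out of 14, 0 were called at 22 °C and 2 lower at 30 °C. These were Tufm, the elongation factor, at -0.63 (SE 0.14, limma adjusted p = 0.00976) and Oxa1l, which inserts the new proteins into the inner membrane, at -0.54 (SE 0.10, limma adjusted p = 0.00497). The translation list had medians of -0.02 at 22 °C and -0.28 at 30 °C.

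Of 11 nuclear regulators of mitochondrial genes, 1 was called at each temperature, both higher, with medians of 0.25 and 0.20. Ppargc1a, a coactivator of mitochondrial biogenesis, had 33.9 ± 11.5 scaled FPKM in knockouts and 14.9 ± 5.62 in controls at 22 °C (SD, n = 4 each). It rose by 1.14 on the log2 scale (SE 0.26, limma adjusted p = 0.0412), although the ranges of the groups overlapped. Yy1, the factor whose motif was searched above, rose by 0.44 at 30 °C (SE 0.11, limma adjusted p = 0.0157).

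**Figure D4:**
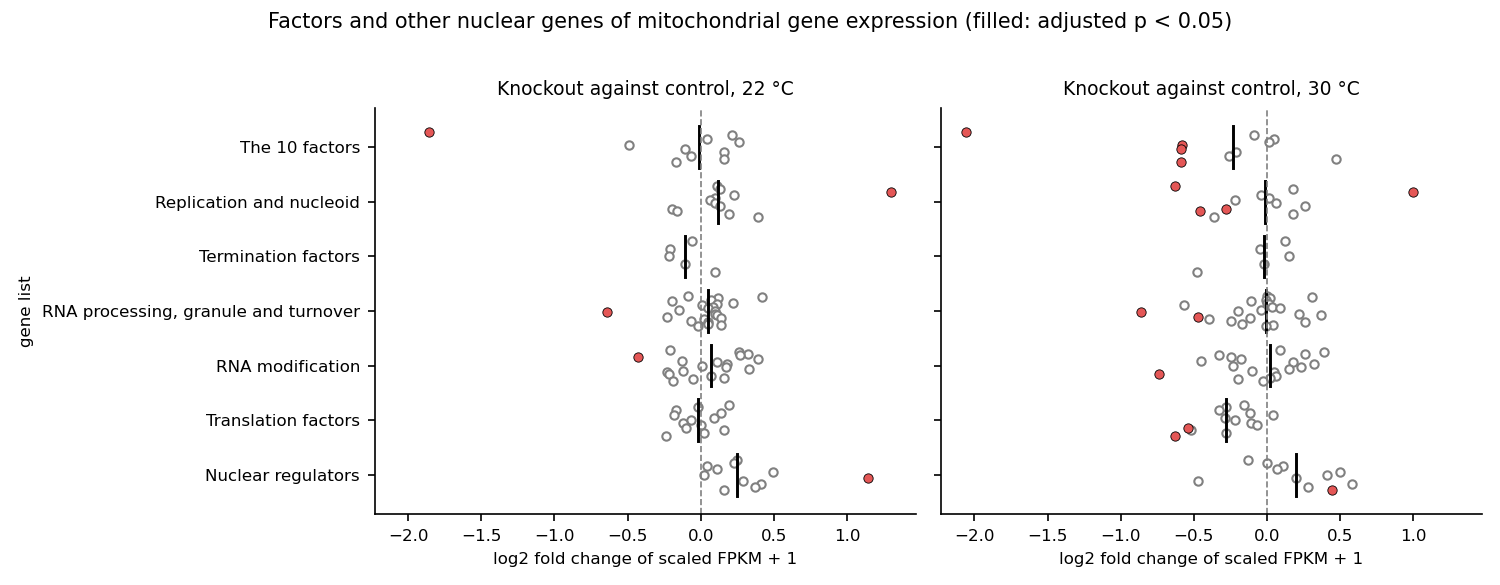
Log2 fold change of scaled FPKM plus 1 in knockouts against controls (x axes) at 22 °C (left) and 30 °C (right) for the 10 factors and the 6 wider lists (y axis). Each point is a gene, filled where the adjusted p is under 0.05, and vertical bars are list medians. Most points lie near 0, and Lrpprc and Lonp1 stand at the extremes of both panels.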

How the data were processed

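Total RNA of brown adipose tissue from 14 mice was sequenced on Illumina libraries, per the labels. The authors deposited gene-level FPKM, with a column per animal, and the genome build is mm9 per the submitters' processing notes. The aligner, the counting tool, the annotation and the use of strand are not given in the sources used here. Of 35275 gene identifiers, 34490 matched GENCODE M21, which was used for symbols, overlaps and transcript lengths. The deposited FPKM step by 1 fragment at a time, which gave back whole fragments (within 0.02) for 13078 of 13079 tested genes in all 14 libraries. The length taken for each gene was the smallest that made its fragments whole, so that rate does not check the lengths. Among 1765 genes with 1 transcript, the length equalled that of GENCODE M21 for 1250. Lengths and fragment numbers of single genes are therefore inferred. Intervals cover the spread between animals, each of which has its own identifier, and no block was fitted because none are paired.

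The filter kept genes that reached 1 FPKM in 3 or more animals. Libraries were scaled by the median ratio to the geometric mean over 10021 nuclear genes (factors 0.835 to 0.955 in knockouts, 1.06 to 1.22 in controls). Log2 values with a pseudocount of 1, which understates changes of low genes, were fitted with a mean per group over all 14 animals (limma 3.58.1, R 4.3.3, trended eBayes). Benjamini-Hochberg adjustment ran over all genes tested, and an adjusted p under 0.05 was called. The scripts were tested on simulated fragment counts. The rule for named genes was the 10 members, the 2 called genes with the largest change in each direction from each wider list and knockout comparison, the 3 genes most correlated with Lrpprc and with Slirp, and check genes. Snw1, Alkbh1 and Gm1818 were named for sequence shared or overlapping with members. Members and lists were chosen with earlier results of these data known.

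Alternatives were a pseudocount of 0.1, no filter or a filter on mean FPKM (5 or more), 3 other scalings (FPKM as deposited, quantile normalization, equal totals of nuclear genes), a fit of only the groups compared, limma's sample weights, fits without both R-identifier controls or without each single animal, and limma voom on the recovered fragments. Copies were sought with blastn 2.17.0, and plots were made with Python 3.11.15 and matplotlib 3.10.9. Promoter letters come from RefSeq on GRCm38.p6, not the build of the deposited values.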

Additional observations from a re-analysis of the deposited data

Results flagged for a closer look

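In knockouts at 22 °C, Lrpprc of replicate 3 stood apart, at 8.84 scaled FPKM, from the other 3 animals, which had 10.8, 11.2 and 11. It was the only case among 20 groups of 4 animals examined (10 genes, 2 groups), and chance gives about 1 in 20. Without that animal the log2 fold change of Lrpprc at 22 °C was -1.79 (limma adjusted p = 0.00192).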

How the results depend on the processing

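Of 880 fold changes recomputed under an alternative, 793 kept their direction and their side of the threshold, 15 lost it, 32 gained it and 40 changed sign. The lower Lrpprc in knockouts passed in all alternatives, as did the higher Slirp at 22 °C in both genotypes in those that kept it; a mean FPKM of at least 5 left out Slirp and Tfb1m.

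The counts in this paragraph have no share of all genes tested beside them, since that share is given for the main fit only. Knockout counts include Lrpprc, the deleted gene. Members called at 22 °C numbered 4 with FPKM as deposited, 2 with sample weights and 2 without the controls with R identifiers. With the same total over nuclear genes 2 were called at 30 °C, with quantile normalization 5, and with sample weights 6 (5 lower, 1 higher). Called members at 30 °C numbered 3 with FPKM as deposited, without the filter, with a mean FPKM of at least 5 and in the groups compared alone. At 30 °C they numbered 1 to 4 when single animals were left out: 1 without control replicate 2, and 2 without knockout replicate 1 or 3. In the temperature comparison of controls they numbered 8 with sample weights and 8 without the R identifiers, and 3 to 7 when single animals were left out. Slirp at 22 °C was -0.62 with sample weights and -0.68 without the R identifiers, passing in both. Slirp at 30 °C was -0.62 in the groups compared alone, not passing there, and -0.70 to -0.49 when single animals were left out, not passing without control replicate 2 or knockout replicate 3 (limma adjusted p = 0.0951 and 0.0924).

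Changes of sign concerned values that did not pass. Knockout changes at 22 °C with FPKM as deposited were 0.18 (Supv3l1), 0.21 (Tfam) and 0.12 (Tfb2m), and with the same total 0.031 (Supv3l1) and 0.06 (Tfam). With sample weights they were -0.13 (Pnpt1) and -0.069 (Tfb1m), and without the R identifiers -0.31 and -0.14. At 30 °C they were 0.17 (Mtpap), 0.0037 (Tfam) and 0.06 (Tefm) as deposited, 0.042 (Mtpap) with the same total, -0.082 (Pnpt1) and -0.075 (Polrmt) with quantile normalization and -0.032 (Polrmt) in the groups alone. Between temperatures in knockouts, Polrmt was 0.017 with quantile normalization, and Tfb1m -0.035 as deposited and -0.0057 with weights. The interaction was -0.18 (Lrpprc) with weights, -0.21 (Lrpprc) and -0.10 (Slirp) without the R identifiers, and for Pnpt1 0.002 as deposited and 0.10 with quantile normalization. Leaving out single animals gave, at 22 °C, -0.091 to 0.19 (Pnpt1), -0.14 to 0.00066 (Tfam) and -0.07 to 0.26 (Tfb1m). At 30 °C it gave -0.01 to 0.14 (Pnpt1) and -0.07 to 0.088 (Polrmt), between temperatures in knockouts -0.25 to 0.0065 (Polrmt) and -0.025 to 0.14 (Tfb1m), and for the interaction -0.019 to 0.37 (Lrpprc) and -0.14 to 0.14 (Pnpt1).

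Apart from the scalings, which shift all genes (their medians at 22 °C and 30 °C, 0.00 and 0.06, became 0.24 and 0.31 as deposited and 0.12 and 0.19 with the same total), the cause of these differences was not tested. Depth limits Tfb1m most, with 56 fragments in its lowest library.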
